A study of Mus musculus with 12 samples.

Results

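The response to T3 (triiodothyronine, the active thyroid hormone) was measured in C17.2b, a mouse C17.2 neural progenitor line that stably expresses a tagged thyroid hormone receptor beta. The libraries were chosen by line, so that 6 of the 12 libraries of the study were used: 3 with T3 at 1e-07 M for 6, 12 or 24 h, and 3 left untreated for the same times. All cells, untreated ones included, spent 24 h in serum-free medium before treatment, and both groups carried the tagged receptor. The other 6 libraries came from C17.2a, which carries the tagged alpha receptor and was handled in the same way. Each line, treatment and time had 1 library, the labels name no separate cultures, and no untransfected parent line was analysed here. The labels do not say whether C17.2b is 1 clone. Expression was read by counting short sequence tags per gene, and levels are given in RPM (tags rescaled so that every library has the same sum), as the authors deposited them.

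Thyroid hormone receptors are nuclear receptors that sit on DNA with or without hormone, often as a pair with a retinoid X receptor. Without T3 they recruit corepressors, and binding of T3 exchanges these for coactivators, so that many target genes are transcribed at a higher rate while others are repressed. In the developing brain, T3 is known for its role in the timing of neuron and glia maturation, and in many tissues it sets the rate of sugar and fat metabolism.

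The implied depth was 9.39e+06, 1.13e+07 and 7.13e+06 tags at 6, 12 and 24 h with T3, and 1.91e+07, 1.11e+07 and 7.36e+06 tags untreated. At these depths 3 tags correspond to 0.157 to 0.421 RPM, a floor that covers counting error only. Across the 10169 genes tested, the Spearman correlation of the T3 library with the untreated library of the same time was 0.973, 0.974 and 0.963 at 6, 12 and 24 h. Between times, the 12 h library correlated with the 6 h library of its group at 0.985 with T3 and 0.99 untreated, and the 24 h library with the 6 h library at 0.913 with T3 and 0.919 untreated. The beta receptor's own gene, Thrb, had 1.70, 1.86 and 1.40 RPM at 6, 12 and 24 h with T3, against 1.94, 0.72 and 1.22 RPM untreated, and Thra, the gene of the alpha receptor, had 2.34, 2.39 and 4.63 RPM at 6, 12 and 24 h with T3, against 3.30, 2.24 and 5.83 RPM untreated. The groups overlapped for both genes, the log2 fold changes of 0.24 (SE 0.23) and -0.19 (SE 0.18) did not pass the test in limma (adjusted p = 0.576 and 0.574), and that of Thrb was -0.0052 without the 12 h pair. The levels of Thrb in C17.2b overlapped those in C17.2a, which had 2.19, 1.77 and 1.79 RPM with T3 and 1.55, 0.98 and 1.33 RPM untreated, so these tags do not check which receptor the line carries. The summed level of 11 neural progenitor markers was 1536 to 3212 RPM with T3 and 3202 to 5824 RPM untreated, and most of each sum was Vim, with 1569.9, 1126 and 2619 RPM with T3 and 2374, 2597 and 4939.7 RPM without. Vim was called lower, but not without the 12 h pair (adjusted p = 0.0501 in limma). Some markers of other types were also present: sums of short marker lists for the oligodendrocyte lineage were 421 to 949 RPM with T3 and 416 to 865 RPM untreated, and those for fibroblasts and mesenchyme were 2347 to 5938 RPM with T3 and 2729 to 4641 RPM untreated. Those for neurons were 107.1 to 622.6 RPM with T3 and 119.3 to 368.0 RPM untreated, and those for astrocytes 205.5 to 276.7 RPM with T3 and 182.2 to 245.2 RPM untreated. Few members made up most of these sums. A level of 5 RPM in 3 or more libraries was reached by 2 of 8 listed oligodendrocyte markers and 2 of 8 neuron markers. For astrocytes it was 2 of 7, and for fibroblasts and mesenchyme 5 of 8. Microglia and blood markers summed to at most 0.18 RPM with T3 and 0.42 RPM untreated, and endothelial markers were not analysed here. In such bulk libraries, fewer cells of a type and less RNA per cell cannot be told apart.

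T3 changed more genes upwards than downwards. Genes entered the test if 3 or more of the 6 libraries reached 1 RPM. Of these 10169 genes, 730 (7.18%) were higher and 356 (3.5%) were lower with T3 at an adjusted p under 0.05. The test was limma on log2(RPM + 1) with time as a block, so that the repeats are the 3 times, each with a T3 and an untreated library, and p-values were adjusted by the Benjamini-Hochberg method over all genes tested. Every log2 fold change below is the mean over the 3 pairs on this scale, T3 over untreated, with its standard error (SE). The spread behind each SE was moderated by limma over all genes, so it is not the spread of the gene's 3 pairs alone. A change of at least 2-fold was reached by 247 of the called genes upwards (2.43% of those tested) and by 88 downwards (0.865%), a change of at least 4-fold by 50 and 5, and a change of at least 8-fold by 10 and 0. All 1086 called genes moved in 1 direction in all 3 pairs. For 383 of the 730 the 3 T3 libraries lay above all 3 untreated ones, and for 200 of the 356 they lay below, against 6.26% and 3.88% of all genes tested. The genes were called on these same libraries, so the shared direction and the lack of overlap follow in part from the call and are a description. The median log2 ratio of the genes called higher was 0.75, 0.80 and 0.85 at 6, 12 and 24 h, and that of the genes called lower was -0.74, -0.73 and -0.69. At least 2-fold rises in a single pair numbered 259 (2.55%), 284 (2.79%) and 453 (4.45%) at 6, 12 and 24 h, and falls numbered 135 (1.33%), 139 (1.37%) and 177 (1.74%), with 141 rises (1.39%) and 38 falls (0.374%) shared by all 3 pairs. The number of calls was 243 without the 12 h pair, 720 without the 6 h pair and 1645 without the 24 h pair, and it was 22 without time as a block. Scaling by the median ratio moved the median of all genes from 0.05 to -0.02 and the share of calls that were higher from 67.2% to 53.7%.

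**Figure D1:**
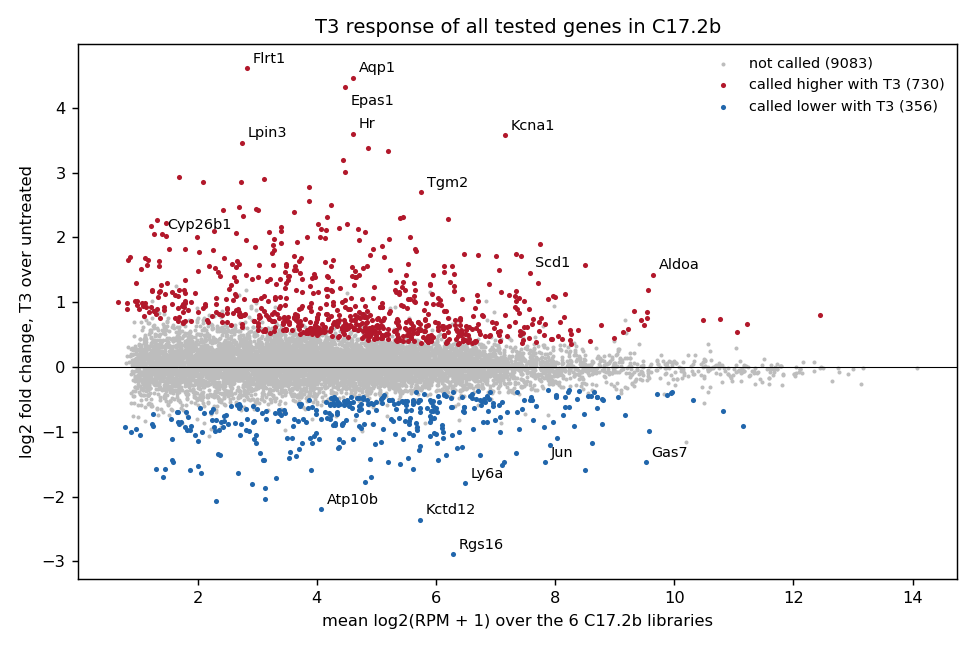
Each point is 1 of 10169 genes, with its mean log2(RPM + 1) over the 6 C17.2b libraries on the x axis and its log2 fold change, T3 over untreated, on the y axis. Red points are the 730 genes called higher and blue points the 356 called lower; rises reach 4.61 for Flrt1 and falls reach -2.89 for Rgs16.

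The genes with the largest rises encode membrane proteins, transporters, channels and regulators. Flrt1, a leucine-rich repeat protein of the membrane that acts in cell adhesion, had 42.2, 31.4 and 30.3 RPM at 6, 12 and 24 h with T3, against 1.0, 0.18 and 0.27 RPM untreated. The T3 values lay far above the untreated ones, 2 of which were under the 3-tag floor, and its log2 fold change was 4.61 (SE 0.16), with adjusted p = 1.34e-06 in limma. Aqp1, a water channel, had 119.8, 195 and 62.9 RPM at 6, 12 and 24 h with T3, against 3.51, 6.10 and 3.39 RPM untreated, a log2 fold change of 4.47 (SE 0.18). Its T3 level was highest at 12 h and the groups were far apart at every time. Epas1, the hypoxia-inducible factor HIF-2alpha, had 48.4, 102 and 193 RPM at 6, 12 and 24 h with T3, against 1.89, 3.95 and 7.73 RPM untreated, a change of 4.32 (SE 0.13) with adjusted p = 1.2e-06 in limma. Both groups of Epas1 climbed with time in culture, and the T3 library was far above the untreated one at each time. Hr, the corepressor Hairless that binds thyroid hormone receptors, had 75.5, 67.7 and 115 RPM at 6, 12 and 24 h with T3, against 4.29, 5.20 and 9.36 RPM untreated, a change of 3.60 (SE 0.13). Kcna1, the voltage-gated potassium channel Kv1.1, had 600.0, 601 and 330.1 RPM at 6, 12 and 24 h with T3, against 64.4, 41.2 and 24.4 RPM untreated, a change of 3.58 (SE 0.13). For Hr and Kcna1 the lowest T3 library lay several times above the highest untreated one.

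Lpin3, a phosphatidate phosphatase of triglyceride synthesis, had 8.51, 15.7 and 69.0 RPM at 6, 12 and 24 h with T3, against 0.47, 0.36 and 3.12 RPM untreated, and rose by 3.47 (SE 0.25). Socs2, a suppressor of cytokine signalling, rose by 3.38 (SE 0.17), with 56.8, 95.7 and 147 RPM with T3 and 5.66, 5.29 and 16.4 RPM untreated. Phospho1, a phosphatase known from bone mineralization, rose by 3.34 (SE 0.15), and Slc43a2, a transporter of large neutral amino acids, by 3.19 (SE 0.14). Cxcr7, a scavenger receptor for the chemokine Cxcl12, had 33.5, 65.7 and 107 RPM at 6, 12 and 24 h with T3, against 7.86, 5.92 and 6.78 RPM untreated, so its T3 level was higher at each later time while the untreated level stayed between 5.92 and 7.86 RPM. Npnt, a matrix ligand of integrins, rose by 2.93 (SE 0.19), with 6.92, 6.46 and 10.9 RPM with T3 and untreated levels of 0.16, 0.09 and 0.27 RPM, all under the 3-tag floor of their libraries or close to it. The channel Hcn2, which opens on hyperpolarization, rose by 2.86 (SE 0.22), the membrane protein gene Tmem117 by 2.91 (SE 0.19), and Cox7a1, a subunit of cytochrome c oxidase known from heart and muscle, by 2.85 (SE 0.42). Hspa1b, an inducible Hsp70 chaperone, rose by 2.78 (SE 0.15); it has a near-identical copy in Hspa1a, and how tags were divided between them is unknown. For these 15 genes the largest adjusted p in limma was 0.00287, that of Cox7a1, whose call was lost without the 12 h pair (adjusted p = 0.0788).

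Large falls were fewer than large rises. Rgs16, a brake on G protein signalling, had 26.1, 25.1 and 32.0 RPM at 6, 12 and 24 h with T3, against 199, 179 and 265 RPM untreated. The groups were far apart at all 3 times, and the log2 fold change was -2.89 (SE 0.10) with adjusted p = 1.34e-06 in limma. Kctd12, an auxiliary subunit of GABA-B receptors, had 27.9, 20.5 and 19.8 RPM at 6, 12 and 24 h with T3, against 135, 119 and 105 RPM untreated, a change of -2.36 (SE 0.11). Atp10b, a phospholipid flippase, had 13.2, 7.44 and 3.08 RPM at 6, 12 and 24 h with T3, against 45.9, 35.1 and 26.6 RPM untreated, a change of -2.19 (SE 0.19). In both genes the T3 libraries were low at all 3 times, and for Atp10b both groups were lower at each later time. Chl1, an adhesion molecule of the L1 family, fell to 1.17, 0.8 and 2.66 RPM with T3, against 6.60, 10.2 and 11.5 RPM untreated, a change of -2.07 (SE 0.21). The secreted protein gene Adamtsl1 changed by -2.03 (SE 0.17), the scaffold Akap12, which holds protein kinase A, by -1.80 (SE 0.20), and the adhesion protein Cdsn by -1.87 (SE 0.26). Ly6a, the surface antigen Sca-1, had 42.0, 52.4 and 47.3 RPM at 6, 12 and 24 h with T3, against 77.9, 187 and 311 RPM untreated. Its T3 level stayed near 50 RPM while its untreated level was higher at each later time, and the change was -1.79 (SE 0.27). The log2 fold changes were -1.77 for the RNA-binding protein Arid5a, -1.71 for Tmem200c, -1.69 for the vesicle protein Syt4, -1.63 for the metalloprotease Adam12, -1.63 for the planar polarity gene Prickle2 and -1.59 for the membrane skeleton gene Epb4.1l4b. Adjusted p in limma was at most 0.00293 for these genes. With the 12 h pair left out, Cdsn, Ly6a and Adam12 were no longer called, with adjusted p of 0.0837 to 0.0961.

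**Figure D2:**
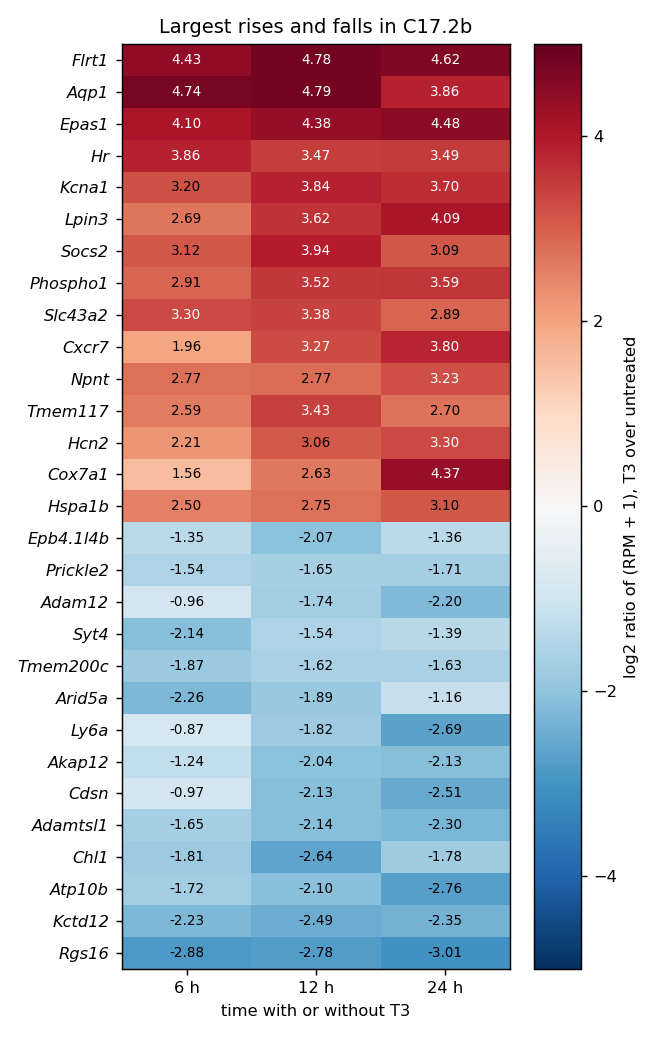
Each row is a gene and each column a time, and the number in a cell is the log2 ratio of (RPM + 1), T3 over untreated, in that pair. The rows run in order of log2 fold change over the largest rises and falls, from 4.61 for Flrt1 to -2.89 for Rgs16; every row keeps 1 colour, while Cox7a1 and Cxcr7 deepen with time.

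The called genes of at least 2-fold with the largest mean levels included an enzyme of glycolysis. Aldoa, the glycolytic enzyme aldolase A, had 848, 1181 and 2250.2 RPM at 6, 12 and 24 h with T3, against 482, 622 and 384 RPM untreated, a log2 fold change of 1.43 (SE 0.28). Its log2 ratios were 0.81, 0.92 and 2.55, so that the pair of 24 h stood apart from the others. Gas7, a growth-arrest gene of the cytoskeleton, had 607, 469 and 306 RPM at 6, 12 and 24 h with T3, against 1366, 1245 and 1080.2 RPM untreated, a change of -1.46 (SE 0.13), and Moxd1, a relative of dopamine beta-hydroxylase, had 272, 216 and 154 RPM at 6, 12 and 24 h with T3, against 503, 694 and 711 RPM untreated, a change of -1.59 (SE 0.20). Neither gene overlapped between groups. Nudt4, which cleaves diphosphoinositol polyphosphates, rose by 1.19 (SE 0.11), Bnip3, a mitochondrial protein of hypoxia and mitophagy, by 1.58 (SE 0.17), and Srebf1, the transcription factor of fat synthesis, by 1.13 (SE 0.12). Serpine2, a secreted protease inhibitor, changed by -1.20 (SE 0.21), and its groups overlapped, with 301, 227 and 57.5 RPM with T3 and 481, 439 and 228 RPM without. Adjusted p in limma was at most 0.0123, and without the 12 h pair Aldoa, Moxd1 and Serpine2 were no longer called (adjusted p of 0.0636 to 0.0965).

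Of 18 tested genes of the hormone's own machinery, its receptors, partners, transporters and corepressors, 4 (22.2%) were called higher and 0 lower. The shares of all genes tested were 7.18% and 3.5%. The list's median log2 fold change was 0.25, against 0.05 over all genes tested. This list and those below were chosen with earlier results of these data known, so their shares are a description. Genes called higher included Hr, Slc43a2 and the retinoid X receptor Rxrb at 0.58 (SE 0.10). Klf9, a transcription factor and direct T3 target, had 34.2, 29.5 and 31.1 RPM at 6, 12 and 24 h with T3, against 10.2, 8.07 and 12.2 RPM untreated. The groups did not overlap, and Klf9 rose by 1.56 (SE 0.14) with adjusted p = 0.000189 in limma. Of 10 tested Kruppel-like factors 2 were called, the second being Klf10 at 0.75 (SE 0.13), and Klf6 and Klf3 were not called at -0.42 and 0.28. Of 32 other nuclear receptors and coregulators 4 were higher and 1 was lower. The retinoic acid receptor Rara had 29.3, 38.8 and 48.4 RPM at 6, 12 and 24 h with T3, against 10.9, 11.5 and 20.8 RPM untreated, a change of 1.40 (SE 0.13), with no overlap. The glucocorticoid receptor Nr3c1 changed by 0.63 (SE 0.11), the vitamin D receptor Vdr by 1.53 (SE 0.30), the fatty acid sensor Ppard by 0.58 (SE 0.15) and the histone deacetylase Hdac9 by -1.52 (SE 0.23). In the fit on the 6 and 24 h pairs, Rxrb, Klf10, Nr3c1, Vdr, Ppard and Hdac9 were no longer called (adjusted p of 0.0605 to 0.339 in limma), and without the 6 h pair Vdr was not (adjusted p = 0.0857).

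Hypoxia-inducible factors switch on genes for glucose uptake, glycolysis, blood vessel growth and mitochondrial turnover, and most genes of this system were higher with T3. The median log2 fold change of the 24 tested was 0.93, against 0.05 over all genes tested. Of the 24, 16 (66.7%) were called higher and 0 lower, against 7.18% and 3.5% of all genes tested. Besides Epas1 and Bnip3, these included Vegfa, the growth factor of blood vessels, with 27.0, 30.3 and 103 RPM at 6, 12 and 24 h with T3, against 5.08, 5.11 and 12.5 RPM untreated. Vegfa rose by 2.50 (SE 0.16) with adjusted p = 4.33e-05 in limma, and its lowest T3 library lay well above the highest untreated one. Bhlhe40, a hypoxia-induced repressor that also acts in the clock, rose by 2.10 (SE 0.17), and Plod2, a lysyl hydroxylase of collagen, by 1.52 (SE 0.14). Car9, a carbonic anhydrase on the cell surface and a classic hypoxia marker, had 11.2, 42.1 and 81.4 RPM at 6, 12 and 24 h with T3, against 7.39, 6.46 and 7.32 RPM untreated, a change of 2.13 (SE 0.41). Its untreated level stayed near 7 RPM, and its T3 level was slightly higher at 6 h and far higher at 24 h. The 8 members not called had log2 fold changes of 0.08 to 0.47. The list's median log2 ratio was 0.61, 0.95 and 1.25 at 6, 12 and 24 h, and 7 of its members were called without the 12 h pair, when Car9 and Kdm3a were no longer called (adjusted p of 0.102 to 0.196 in limma). Kdm3a, a histone demethylase induced by hypoxia, had changed by 0.63 (SE 0.10).

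Glycolysis followed the same direction. Of 22 tested genes of glycolysis, glucose uptake and lactate, 17 were called higher and 1 lower, against 7.18% and 3.5% of all genes tested. The median log2 fold change was 0.76. Pfkfb2, an enzyme that sets the level of the glycolytic activator fructose 2,6-bisphosphate, had 95.7, 101 and 50.5 RPM at 6, 12 and 24 h with T3, against 29.3, 29.6 and 19.1 RPM untreated, a change of 1.59 (SE 0.12) with adjusted p = 7.63e-05 in limma. Pfkl and Pfkm, the liver and muscle phosphofructokinases, rose by 1.29 (SE 0.12) and 1.14 (SE 0.13). Slc2a1, the glucose transporter Glut1, had 54.5, 63.6 and 64.3 RPM at 6, 12 and 24 h with T3, against 29.4, 29.2 and 23.6 RPM untreated, a change of 1.12 (SE 0.13). The T3 libraries of Pfkfb2 and Slc2a1 lay above all untreated ones, and Pfkm had 12.4, 15.6 and 51.3 RPM with T3 and 4.77, 7.26 and 22.0 RPM without, so that its 24 h untreated library lay above 2 of the T3 libraries. The lower member was the lactate dehydrogenase subunit Ldhb at -0.54, named after its value was seen, and the 4 members not called ranged from 0.07 to 0.40. The median log2 ratio of the list was 0.47, 0.86 and 1.07 at 6, 12 and 24 h. On the 6 and 24 h pairs alone, 6 members were called higher and 0 lower.

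Short promoter stretches of 4 of the risen genes are shown because they hold letters that the receptor or the hypoxia factors are known to bind; they were chosen after their values were seen. The windows run from 250 bases before to 50 after the first listed start of each gene in RefSeq, build GRCm38.p6, which is not the build mm9 named for the deposited data. Capitals mark ACGTG, a form of the core of the hypoxia response element, on either strand in Car9 (chr4:43506776-43507075, plus strand), Bnip3 (chr7:138909457-138909756, minus strand) and Slc2a1 (chr4:119108495-119108794, plus strand), and AGGTCA, the repeated unit of the thyroid hormone response element, on the opposite strand in Hcn2 (chr10:79716384-79716683, plus strand). The other form of the hypoxia core, GCGTG, is not marked.
Car9: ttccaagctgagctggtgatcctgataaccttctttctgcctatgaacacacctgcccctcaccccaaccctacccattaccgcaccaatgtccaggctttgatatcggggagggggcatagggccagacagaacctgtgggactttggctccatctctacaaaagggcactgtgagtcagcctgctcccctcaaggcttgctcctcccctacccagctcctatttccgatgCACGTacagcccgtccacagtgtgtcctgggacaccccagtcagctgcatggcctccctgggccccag
Bnip3: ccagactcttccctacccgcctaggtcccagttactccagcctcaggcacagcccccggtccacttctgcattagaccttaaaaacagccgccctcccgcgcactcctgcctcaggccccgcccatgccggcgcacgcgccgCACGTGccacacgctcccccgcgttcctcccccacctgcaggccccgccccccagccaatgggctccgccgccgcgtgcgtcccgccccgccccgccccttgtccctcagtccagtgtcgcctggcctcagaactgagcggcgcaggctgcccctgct
Slc2a1: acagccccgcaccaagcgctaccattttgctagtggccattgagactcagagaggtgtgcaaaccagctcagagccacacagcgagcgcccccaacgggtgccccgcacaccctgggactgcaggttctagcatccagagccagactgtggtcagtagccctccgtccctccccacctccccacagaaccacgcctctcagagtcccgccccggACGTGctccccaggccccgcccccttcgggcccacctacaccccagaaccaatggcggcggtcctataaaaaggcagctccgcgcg
Hcn2: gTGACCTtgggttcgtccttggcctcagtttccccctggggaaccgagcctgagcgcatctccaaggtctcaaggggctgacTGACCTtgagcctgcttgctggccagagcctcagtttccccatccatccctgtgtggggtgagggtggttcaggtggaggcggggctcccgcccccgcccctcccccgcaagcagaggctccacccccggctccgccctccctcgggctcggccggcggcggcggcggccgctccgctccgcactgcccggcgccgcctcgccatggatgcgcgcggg
Counted from the start, the match began at position -18 in Car9 and -36 in Slc2a1, Bnip3 had overlapping matches on both strands at -108 and -107, and Hcn2 had matches at -249 and -168.

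A promoter window was matched for 8153 of the 10169 tested genes, and 8150 distinct ones were searched on both strands. ACGTG lay in 26.8% of all windows and in 24.7% of those of the genes called higher. It lay in 17 of 30 windows (56.7%) of the hypoxia and glycolysis members called higher and in 5 of 9 (55.6%) of the members not called, so its share did not separate called from uncalled members. GCGTG lay in 53.5% of all windows, in 56.7% for these members called higher and in 55.6% for those not called. Either form lay in 65.4% of all windows, in 73.3% for these members called higher and in 77.8% for those not called. AGGTCA lay in 11.6% of all windows, in 12.2% for genes called higher and in 14.2% for genes called lower. The direct repeat of AGGTCA with 4 bases between its copies, known as DR4, lay in 0 windows. A match is only a description of letters, and no match says only that these letters are absent from this window.

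Genes of fat synthesis were partly higher. Of 19 tested genes of fatty acid and triglyceride synthesis, 9 were called higher and 1 lower (52.6%, against 10.7% of all genes tested). The median log2 fold change was 0.42. Scd1, which desaturates fatty acids, had 201, 336 and 461 RPM at 6, 12 and 24 h with T3, against 67.7, 119 and 184 RPM untreated, a change of 1.45 (SE 0.10) with adjusted p = 4.61e-05 in limma. The level of Scd1 was higher at each later time in both groups, and no T3 library reached down to the untreated range. Dgat2, which makes triglycerides, had 451, 480.1 and 139 RPM at 6, 12 and 24 h with T3, against 106, 133 and 59.5 RPM untreated, a change of 1.71 (SE 0.15), so that its 24 h T3 level was close to the untreated 12 h level. With Srebf1 and Lpin3 these were the members with the smallest p, with 5 called higher and 0 lower without the 12 h pair, and the 1 lower member was the acyl-CoA synthetase gene Acsl3 at -0.68, named after its value was seen. Of 25 tested genes of cholesterol synthesis and uptake 1 was higher and 1 was lower (8.0%, near the 10.7% of all genes tested), with a median of 0.04. These were the cholesterol exporter Abca1, which rose to 1.70, 2.48 and 8.55 RPM with T3 against 0.31, 0.18 and 0.95 RPM untreated, and Hmgcs1, an enzyme of the mevalonate pathway, at -0.46 (SE 0.11). Of 21 tested genes of fatty acid oxidation and uncoupling, 4 were higher and 0 lower (19.0%), with a median of 0.16. Cpt1a, the carnitine transferase that admits fatty acids to mitochondria, had 95.9, 122 and 160.4 RPM at 6, 12 and 24 h with T3, against 54.1, 59.5 and 64.6 RPM untreated, a change of 1.04 (SE 0.12), and the mitochondrial carrier Ucp2 and the second transferase Cpt2 changed by 0.76 (SE 0.10) and 0.64 (SE 0.12). The fourth was Ppard, at 0.58, and without the 12 h pair 1 of the 4 was called. None of 35 oxidative phosphorylation genes was called in limma, and 2 were called higher without the 24 h pair. In the main fit 3 had an unadjusted p under 0.05 in limma, against 2482 of all 10169 genes tested. The list does not hold Cox7a1, and its fold changes ranged from -0.12 to 0.62 on the log2 scale. When the 12 h pair was left out, Abca1, Hmgcs1, Ucp2, Cpt2 and Ppard were no longer called (adjusted p of 0.0657 to 0.339 in limma), nor were Hmgcs1 and Cpt2 without the 6 h pair (adjusted p = 0.0983 and 0.0577).

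Clock genes were called in both directions. Of 14 tested genes 6 were higher and 1 was lower, with a median log2 fold change of 0.51. Dbp, an output transcription factor of the clock, had 19.3, 37.5 and 19.6 RPM at 6, 12 and 24 h with T3, against 4.56, 18.1 and 7.46 RPM untreated, a change of 1.39 (SE 0.17) with adjusted p = 0.00115 in limma. Its 12 h library was the highest of each group. Hlf, a relative of Dbp, had 1.92, 3.19 and 1.96 RPM with T3 and at most 0.05 RPM untreated, which is under the 3-tag floor. Nfil3, a repressor that competes with Dbp for its sites, had 3.62, 3.10 and 6.73 RPM at 6, 12 and 24 h with T3, against 13.9, 10.9 and 15.3 RPM untreated, a change of -1.44 (SE 0.17), with no overlap. Of the remaining members, Bhlhe40, given with the hypoxia genes, was also called. With the 12 h pair left out, 3 clock genes were higher and 1 was lower.

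**Figure D3:**
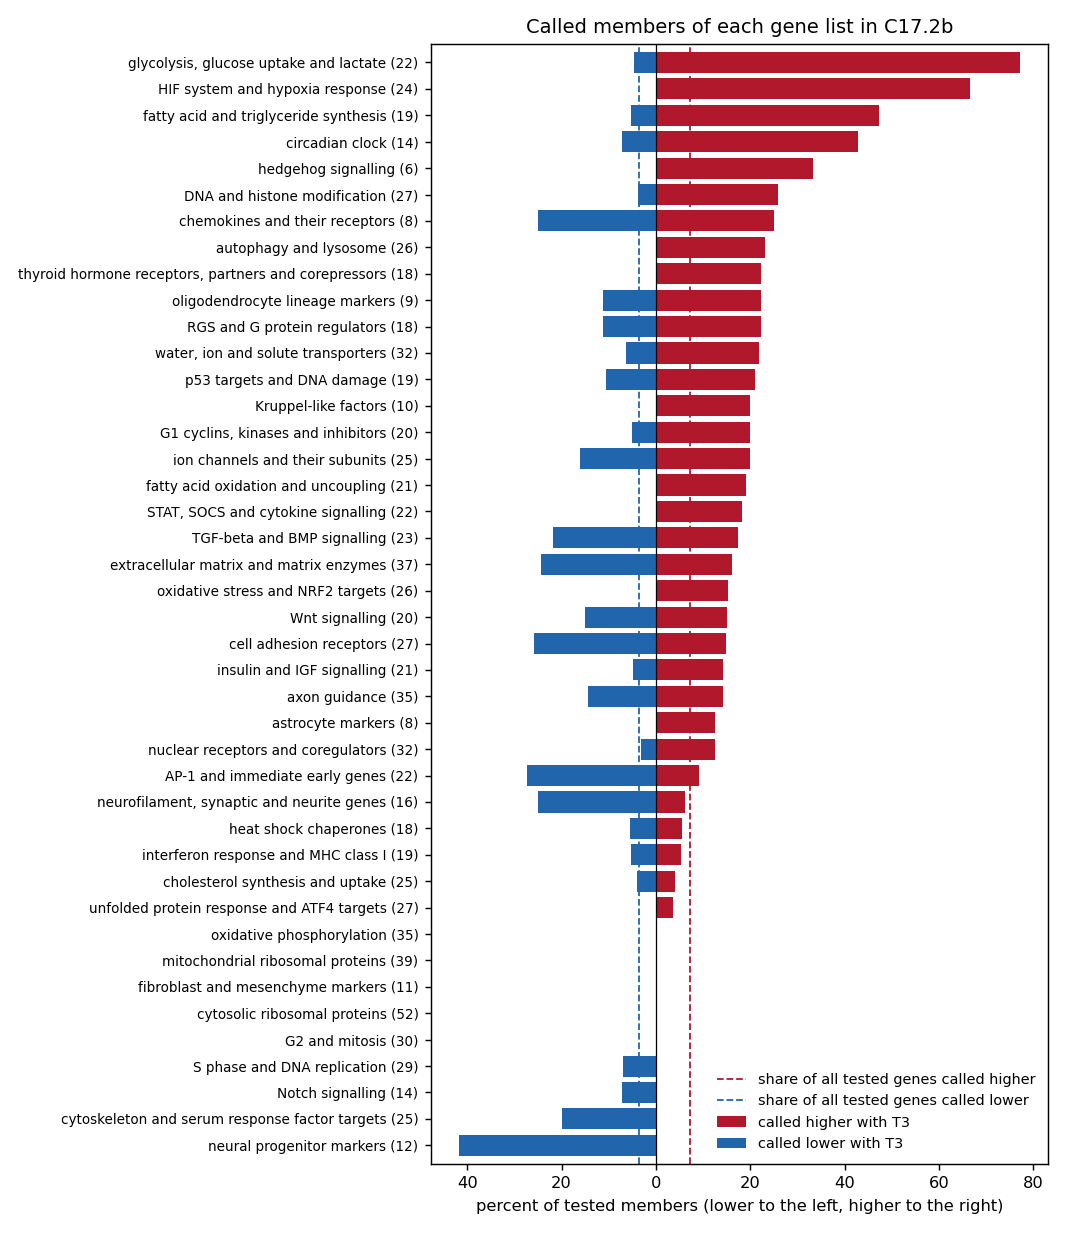
Bars give the percent of tested members of each gene list that were called higher with T3 (red, to the right) or lower (blue, to the left), with the number of tested members in parentheses. Dashed lines mark the shares of all 10169 tested genes, 7.18% higher and 3.5% lower. The lists were chosen with earlier results of these data known, so the bars are a description. Glycolysis (17 of 22 higher) and the hypoxia response (16 of 24 higher) reach furthest to the right. Neural progenitor markers (5 of 12 lower) reach furthest to the left.

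Transport genes held some of the largest rises of the line. Of 32 tested water, ion and solute transporters 7 were higher and 2 lower (28.1%, against 10.7% of all genes tested). The median log2 fold change was 0.19. Atp1b2, a sodium pump subunit of glia, had 5.75, 15.3 and 30.4 RPM at 6, 12 and 24 h with T3, against 0.79, 2.51 and 3.39 RPM untreated, a change of 2.32 (SE 0.20) with adjusted p = 0.000151 in limma. Slc1a2, the main glutamate transporter of astrocytes, had 3.09, 4.69 and 4.21 RPM at 6, 12 and 24 h with T3, against 0.1, 0.18 and 0 RPM untreated, a change of 2.18 (SE 0.20), with untreated levels under the 3-tag floor. Aqp1 rose and Atp10b fell in this list, as given above. Of 25 tested ion channel genes 5 were higher and 4 lower (36.0%). Besides Kcna1, Hcn2 and Kctd12, the calcium channel Cacna1h was called and rose by 1.62 (SE 0.13). In the fit on the 6 and 24 h pairs, 5 transporters were higher and 1 was lower, and 3 channel genes were higher and 2 lower.

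Guidance and adhesion genes moved in both directions. Of 35 tested axon guidance genes 5 were higher and 5 lower (28.6%, against 10.7% of all genes tested), with a median of 0.02. Plxna1, a semaphorin receptor, had 98.4, 91.8 and 90.7 RPM at 6, 12 and 24 h with T3, against 18.0, 21.7 and 28.9 RPM untreated, a change of 2.01 (SE 0.15), and its coreceptor Nrp1 had 319, 279.6 and 294 RPM at 6, 12 and 24 h with T3, against 79.4, 72.8 and 118 RPM untreated, a change of 1.74 (SE 0.14). The T3 libraries of these genes were higher at every time with no overlap. Plxnd1 rose by 1.46 (SE 0.14) and Plxna2 changed by -0.98 (SE 0.11), with adjusted p in limma of at most 0.000524 among the 4. Of 27 tested adhesion receptors 4 were higher and 7 lower (40.7%), with Flrt1 and Chl1 at the ends. Itga7, a laminin-binding integrin, rose by 1.28 (SE 0.10), and Mcam, an adhesion molecule of vessel and neural crest cells, changed by -1.57 (SE 0.15). Of 37 tested matrix genes 6 were higher and 9 lower (40.5%), with a median of -0.02. The basement membrane protein Nid2 rose by 1.54 (SE 0.12), with 30.1, 28.3 and 73.7 RPM with T3 and 9.48, 9.42 and 24.6 RPM untreated. On the 6 and 24 h pairs alone, 4 guidance genes were higher and 1 was lower, and 2 adhesion receptors were higher and 4 lower. Postn, a matricellular protein, changed by -0.98 (SE 0.12), and Postn was no longer called without the 12 h pair (adjusted p = 0.054 in limma), when 3 matrix genes were higher and 1 was lower. Of 25 tested targets of serum response factor and other cytoskeletal genes 0 were higher and 5 lower, with a median of -0.25, and 0 of them were called without the 12 h pair. The anchor protein Vcl changed by -0.48 (SE 0.10), the matrix protein Ctgf by -0.69 (SE 0.14), the tropomyosin Tpm1 by -0.79 (SE 0.16) and the calponin Cnn3 by -0.49 (SE 0.10), with adjusted p of 0.155 to 0.185 in limma without the 12 h pair. Ctgf and Cnn3 were also lost without the 6 h pair (adjusted p = 0.096 and 0.0774).

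Markers of the progenitor state were lower with T3 where they were called. Of 12 tested neural progenitor markers 0 were higher and 5 lower (41.7%, against 10.7% of all genes tested). The median log2 fold change was -0.37. Sox2, a transcription factor of neural stem cells, had 88.4, 108 and 62.0 RPM at 6, 12 and 24 h with T3, against 306, 282 and 149.8 RPM untreated. All T3 values lay below all untreated values, and the change was -1.47 (SE 0.12) with adjusted p = 0.000116 in limma. Vim, the intermediate filament vimentin, had 1569.9, 1126 and 2619 RPM at 6, 12 and 24 h with T3, against 2374, 2597 and 4939.7 RPM untreated, a change of -0.91 (SE 0.13), and its groups overlapped. The receptor Notch1 changed by -0.84 (SE 0.10) with no overlap, and the RNA-binding protein Msi2 by -0.49 (SE 0.09). The fifth was Sox4 at -0.50, named after its value was seen, and the 7 members not called ranged from -0.40 to 0.38. Of 14 tested Notch pathway genes only Notch1 was called (7.14%, near the share of all genes tested). Genes of neurites and synapses gave 1 higher and 4 lower of 16 tested (31.2%), with a median of -0.13. The neurofilament Nefm had 1.60, 0.8 and 0.28 RPM at 6, 12 and 24 h with T3, against 6.02, 4.39 and 2.31 RPM untreated, a change of -1.46 (SE 0.18), the vesicle protein Syt11 changed by -0.69 (SE 0.10), and the microtubule kinase Dclk1 rose by 1.06 (SE 0.14). Oligodendrocyte lineage markers gave 2 higher and 1 lower of 9 (33.3%). Among them were the myelin genes Pmp22 at 1.16 (SE 0.14) and Pmp2 at -1.23 (SE 0.26). Of 8 astrocyte markers only Slc1a2 was called (12.5%, near the share of all genes tested). Gfap, Glul and S100b stood at 0.66, 0.31 and -0.22. Of 11 fibroblast and mesenchyme markers 0 were called in limma, and without the 6 h pair 2 were called higher. In the main fit 2 had an unadjusted p under 0.05 in limma, against 2482 of all 10169 genes tested. The sums given with the depths come from shorter lists of these cell types, and their part in other results was not tested. When the 12 h pair was left out, 2 progenitor markers were called lower, and Vim, Msi2, Syt11, Dclk1 and Pmp2 were not called (adjusted p of 0.0501 to 0.155 in limma).

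Some of the early response genes, and cyclin D1, were lower. Of 22 tested AP-1 and immediate early genes 2 were higher and 6 lower (36.4%, against 10.7% of all genes tested). The median log2 fold change was -0.13. Jun, a subunit of AP-1, had 149, 131 and 129.9 RPM at 6, 12 and 24 h with T3, against 398, 365 and 374 RPM untreated. Both groups varied little over time and did not overlap, and the change was -1.46 (SE 0.09) with adjusted p = 3.69e-05 in limma. Spry2, a feedback inhibitor of growth factor signalling, had 15.6, 17.5 and 18.6 RPM at 6, 12 and 24 h with T3, against 47.1, 43.3 and 53.2 RPM untreated, a change of -1.42 (SE 0.12). The transcription factors Etv5 and Nr4a2 changed by -0.82 (SE 0.12) and -1.17 (SE 0.17). The list had 0 higher and 8 lower under median-ratio scaling, and 0 higher and 2 lower without the 12 h pair. Ccnd1, the G1 cyclin D1, had 86.4, 67.8 and 90.3 RPM at 6, 12 and 24 h with T3, against 187, 228 and 299 RPM untreated, a change of -1.52 (SE 0.14), with no overlap. It was the 1 lower gene of 20 tested G1 regulators, while 4 were higher: Ccnd3, another D cyclin, at 0.52 (SE 0.10), the kinase inhibitors Cdkn1a at 0.97 (SE 0.21) and Cdkn2c at 1.83 (SE 0.45), and the pocket protein Rb1 at 0.58 (SE 0.13). Of 29 S phase genes 2 were lower, the replication factors Gins2 at -0.51 (SE 0.11) and Cdt1 at -0.37 (SE 0.10). None of 30 mitosis genes was called in limma and 10 had an unadjusted p under 0.05, against 2482 of all 10169 genes tested. Of the 30, 28 had a negative log2 fold change and the list's median was -0.23, with -0.50 at 24 h. With the 12 h pair left out, Etv5, Nr4a2, Ccnd3, Cdkn1a, Cdkn2c, Rb1, Gins2 and Cdt1 were no longer called (adjusted p of 0.0501 to 0.312 in limma), nor were Rb1, Cdt1 and Cdkn2c without the 6 h pair (adjusted p of 0.0788 to 0.183).

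Calls in the signalling lists ranged from 7.14% of the Notch list, given with the progenitor markers, to 4 of 8 in the chemokine list. The STAT and SOCS list had 18.2%, against 10.7% of all genes tested. Of 22 STAT, SOCS and cytokine genes 4 were higher and 0 lower: Socs2, Stat5a at 1.26 (SE 0.20), Stat5b at 0.78 (SE 0.15) and Socs3 at 0.60 (SE 0.15), where Stat5a and Stat5b are the factors that growth hormone activates and Socs2 and Socs3 inhibit such signals. Stat5a had 1.81, 1.73 and 7.64 RPM at 6, 12 and 24 h with T3, against 0.16, 0.36 and 2.03 RPM untreated. In insulin and IGF signalling 3 of 21 were higher and 1 lower, with the forkhead factor Foxo1 at 0.79, the pseudokinase Trib1 at 0.60, the binding protein Igfbp4 at 0.94 and the growth factor Igf1 at -0.79. In TGF-beta and BMP signalling 4 of 23 were higher and 5 lower, with 1 higher and 0 lower without the 12 h pair, and the receptors Tgfbr3 and Tgfbr1 stood at 0.93 and 0.96 and the ligands Tgfb3 and Tgfb2 at 0.77 and -0.75. In Wnt signalling 3 of 20 were higher and 3 lower, with 0 higher and 1 lower without the 12 h pair as without the 6 h pair, and with the ligand Wnt5a at 0.79 and the receptors Fzd7 and Fzd1 at 0.44 and -0.52. Of 6 hedgehog genes 2 were higher, the coreceptor Cdon at 0.82 and the transcription factor Gli3 at 0.70. Of 8 chemokine genes Cxcr7 and Cx3cl1 were higher, the membrane-bound chemokine Cx3cl1 at 0.85, and Ccl2 and Cxcl14 were lower. Ccl2, which attracts monocytes, had 41.8, 43.3 and 21.4 RPM at 6, 12 and 24 h with T3, against 114, 116 and 38.4 RPM untreated, a change of -1.21 (SE 0.14) with adjusted p = 0.000712 in limma. For Ccl2 the groups overlapped, since the untreated 24 h library was lower than 2 of the T3 libraries. Of 18 RGS and G protein regulators 4 were higher and 2 lower. The arrestin relative Arrdc3 had 56.8, 111 and 142 RPM at 6, 12 and 24 h with T3, against 17.3, 18.7 and 19.9 RPM untreated, a change of 2.31 (SE 0.19), and the beta-arrestin Arrb1 rose by 1.55 (SE 0.21). In the fit on the 6 and 24 h pairs, Stat5b, Socs3, Foxo1, Trib1, Igf1, Tgfbr3, Tgfb3, Tgfb2, Wnt5a, Fzd7, Fzd1, Cdon, Gli3, Cx3cl1 and Cxcl14 were no longer called (adjusted p of 0.0521 to 0.281 in limma). Without the 6 h pair Stat5b, Socs3, Foxo1, Igfbp4, Igf1, Wnt5a, Fzd7, Fzd1, Gli3 and Cxcl14 were not (adjusted p of 0.0522 to 0.179), and without the 24 h pair Socs3 and Cx3cl1 were not (adjusted p = 0.0845 and 0.0602).

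Calls in the lists of stress, lysosome and chromatin genes were mostly upwards, as were 67.2% of all calls. The share called was 15.4% to 31.6% in the autophagy, histone, oxidative stress and p53 lists, against 10.7% of all genes tested. It was 11.1% for heat shock, 10.5% for interferon and MHC class I genes and 3.7% for the unfolded protein response. Of 26 autophagy and lysosome genes 6 were higher and 0 lower, with a median of 0.21 on the log2 scale. Tcfeb, the transcription factor TFEB that switches on lysosomal genes, had 10.8, 10.0 and 19.2 RPM at 6, 12 and 24 h with T3, against 2.10, 2.33 and 3.39 RPM untreated, a change of 1.95 (SE 0.16) with adjusted p = 0.000134 in limma and no overlap. The lysosomal sialidase Neu1, the cargo receptor Sqstm1 and the autophagosome protein Map1lc3a changed by 0.71, 0.45 and 0.47, and 1 gene of the list was called without the 12 h pair. Of 27 genes of DNA and histone modification 7 were higher and 1 was lower. Tet1, which oxidizes methylcytosine, had 16.7, 14.2 and 11.2 RPM at 6, 12 and 24 h with T3, against 4.40, 4.04 and 6.10 RPM untreated, a change of 1.36 (SE 0.20), and Jarid2, a partner of the Polycomb complex, and the demethylase Kdm4b changed by 1.18 (SE 0.17) and 0.91 (SE 0.15). None of this list was called without the 12 h pair. Of 26 oxidative stress genes 4 were higher, with the heme oxygenase Hmox1 at 1.45 (SE 0.23), catalase, gene Cat, at 0.68 (SE 0.13), and the pentose phosphate enzymes Tkt and G6pdx at 0.55 (SE 0.09) and 0.73 (SE 0.14). In the p53 list 4 of 19 were higher and 2 lower, with Gadd45a at 0.82, Trp53 itself at 0.46 and the antiproliferative gene Btg1 at -0.75, and 0 higher and 1 lower without the 12 h pair. Of 18 heat shock chaperones Hspa1b was higher and Dnajb4 lower, at -0.68 (SE 0.12). Of 27 unfolded protein response genes only Atf5 was called, at 0.50 (SE 0.10), and of 19 interferon and MHC class I genes only Psmb10, at 0.72 (SE 0.11), and Ly6a. None of 52 cytosolic and none of 39 mitochondrial ribosomal protein genes was called in limma, with medians of -0.07 and 0.10. An unadjusted p under 0.05 in limma was reached by 1 and 7 of them, against 2482 of all 10169 genes tested. Without the 24 h pair 4 of the cytosolic and 5 of the mitochondrial ones were called higher. On the 6 and 24 h pairs alone, Neu1, Sqstm1, Map1lc3a, Tet1, Jarid2, Kdm4b, Cat, Tkt, G6pdx, Gadd45a, Trp53, Dnajb4, Atf5, Psmb10 and Ly6a were no longer called (adjusted p of 0.0593 to 0.258 in limma), nor were G6pdx, Trp53, Neu1 and Sqstm1 without the 6 h pair (adjusted p of 0.0538 to 0.061).

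The size of the response changed with time in part of the genes. Of the 730 genes called higher, 211 had their largest log2 ratio at 6 h, 222 at 12 h and 297 at 24 h, and the 356 called lower had it at 6 h in 129, at 12 h in 101 and at 24 h in 126. A slope of the log2 ratio on the doubling of hours, with 1 residual degree of freedom and the spread moderated over all genes, passed limma's test at an adjusted p under 0.05 in 221 genes (2.17%), 143 with a positive and 78 with a negative slope. Of the 221, 34 were also called higher with T3, 20 lower and 167 neither. Without a trend in limma's prior 4 genes passed, and without a filter on low values, over 12700 genes, 0 did. Car9 had log2 ratios of 0.54, 2.53 and 3.31 and a slope of 1.39 (adjusted p = 1.85e-05). Cox7a1 had 1.56, 2.63 and 4.37, and the acute phase protein gene Lbp had 0.66, 1.30 and 2.74. In each of the 3 the pair of 24 h stood highest. Cdkn2c, the autophagy gene Atg9a and Gdap2 also had their highest ratio at 24 h, at 3.53, 3.41 and 2.71. The opposite order was seen in Cyp26b1, which degrades retinoic acid and had 13.0, 4.25 and 1.12 RPM at 6, 12 and 24 h with T3, against 0.26, 0.36 and 0.27 RPM untreated. Its T3 level was highest at 6 h and its untreated level stayed near the 3-tag floor, with ratios of 3.47, 1.95 and 0.74 and a slope of -1.37 (adjusted p = 0.00135 in limma). Vdr had ratios of 2.30, 1.80 and 0.49. The falls of the neuron navigator gene Nav2, of Pmp2, Cdsn and Ly6a were larger at 24 h than at 6 h, with slopes of -0.93, -0.78, -0.77 and -0.91. For the mean T3 effect, the calls of Car9, Cox7a1, Lbp, Cdkn2c, Atg9a, Gdap2, Cyp26b1, Vdr, Nav2, Pmp2, Cdsn and Ly6a were lost without the 12 h pair (adjusted p of 0.0778 to 0.196), and those of Cdkn2c, Atg9a, Gdap2, Cyp26b1 and Vdr without the 6 h pair (adjusted p of 0.0533 to 0.0867 in limma).

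**Figure D4:**
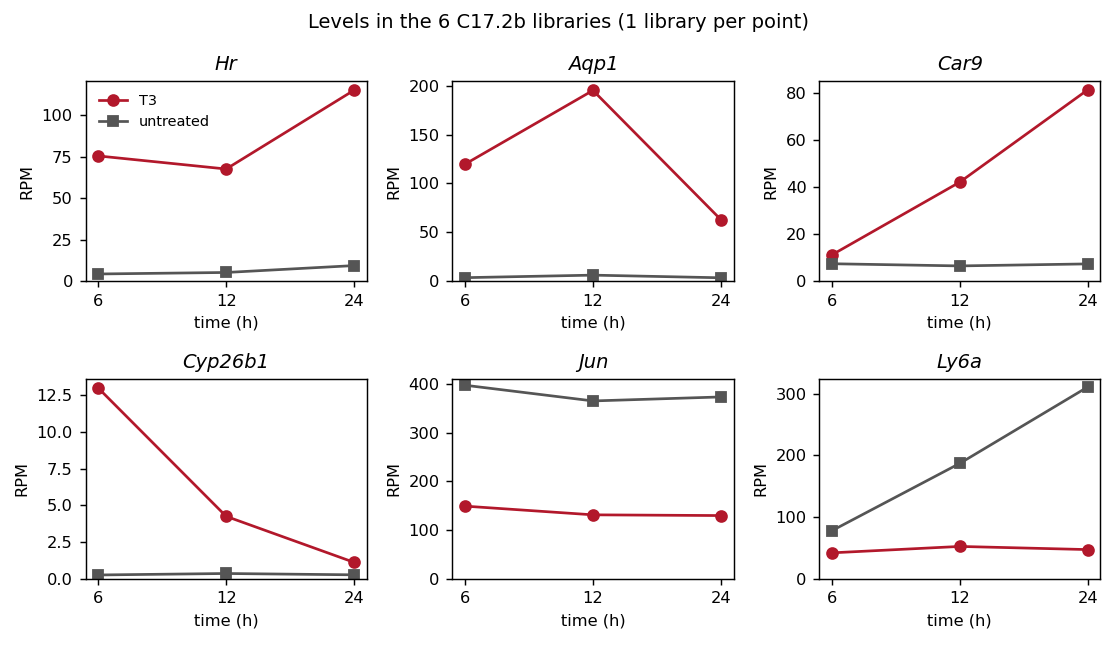
Each panel gives the level of a gene in RPM against time in hours, with T3 in red circles and untreated in grey squares, and each point is 1 library. T3 levels of Hr and Aqp1 lie above the untreated ones at all times, Car9 parts from them after 6 h (11.2 RPM with T3 and 7.39 RPM untreated), Cyp26b1 comes back towards them by 24 h, and Jun and Ly6a lie below them.

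Some genes with the smallest p for a change with time turned round between times and were not called for the mean effect. Gng11, a G protein gamma subunit, had 29.1, 81.7 and 287 RPM at 6, 12 and 24 h with T3, against 31.8, 46.3 and 40.3 RPM untreated. Cav1, the caveolin of membrane pits, had 161, 179 and 466 RPM at 6, 12 and 24 h with T3, against 297, 248 and 69.5 RPM untreated, and the stress gene Ier3 had 6.38, 22.3 and 183 RPM at 6, 12 and 24 h with T3, against 21.2, 22.7 and 78.9 RPM untreated. In Cav1 and Ier3 the T3 library was the lower one of the pair at 6 h and the higher one at 24 h. The endosomal adaptor Appl2 had log2 ratios of -0.31, 1.29 and 2.06 and the mitochondrial ribosomal gene Mrps21 of 0.83, 0.15 and -1.97. The slopes were 1.80 for Cav1, 1.46 for Gng11, 1.40 for Ier3, 1.19 for Appl2 and -1.40 for Mrps21, with adjusted p in limma of at most 1.26e-06.

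The response of C17.2b was set against that of C17.2a to ask which genes respond differently in cells with the beta and the alpha receptor. A fit over all 12 libraries found 0 of 10577 genes (0%) with a difference at an adjusted p under 0.05, while 583 had an unadjusted p under 0.05 and the smallest adjusted p in limma was 0.178. In the C17.2a 24 h pair the T3 and untreated libraries correlated at 0.905, the lowest of the 6 pairs (0.963 to 0.979 in the others), and the ratios of Klf9 were 1.66, 1.75 and 1.28 in C17.2b and 1.18, 1.47 and -0.40 in C17.2a. Without that pair 2 genes passed, Tgm2 and Rgs16. Tgm2, a transglutaminase that cross-links proteins, had 164, 139 and 113 RPM with T3 and 20.1, 18.6 and 22.0 RPM untreated in C17.2b, and 145, 97.4 and 129 RPM with T3 and 83.7, 60.9 and 75.1 RPM untreated in C17.2a. The T3 levels of the lines overlapped, and the untreated levels were lower in C17.2b. The difference of the T3 effect, C17.2b over C17.2a, was 1.96 (SE 0.22) over all pairs (adjusted p = 0.178) and 1.97 without the C17.2a 24 h pair (adjusted p = 0.00807 in limma). Rgs16 had 41.5, 43.8 and 81.2 RPM with T3 and 107, 111 and 118 RPM untreated in C17.2a, so C17.2b, with the values given above, was lower with T3 and higher without. Its difference was -1.83 (SE 0.25) (adjusted p = 0.433), and -1.56 without that pair (adjusted p = 0.00807 in limma). Ppp1r14c, an inhibitor of protein phosphatase 1, had 2.87, 3.28 and 8.83 RPM with T3 and 0.16, 0 and 0.27 RPM untreated in C17.2b, with log2 ratios of 1.74, 2.10 and 2.95 in C17.2b and 0.20, 0.82 and -0.03 in C17.2a. The receptor gene Mrgprf had ratios of 1.52, 1.26 and 1.16 in C17.2b and 0.57, -0.17 and -0.38 in C17.2a, and Ost4, a subunit of oligosaccharyltransferase, had -0.02, 0.10 and -0.08 in C17.2b and -0.63, -1.11 and -1.08 in C17.2a. Adjusted p for the difference was 0.722 in limma for these last 3 genes.

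**Figure D5:**
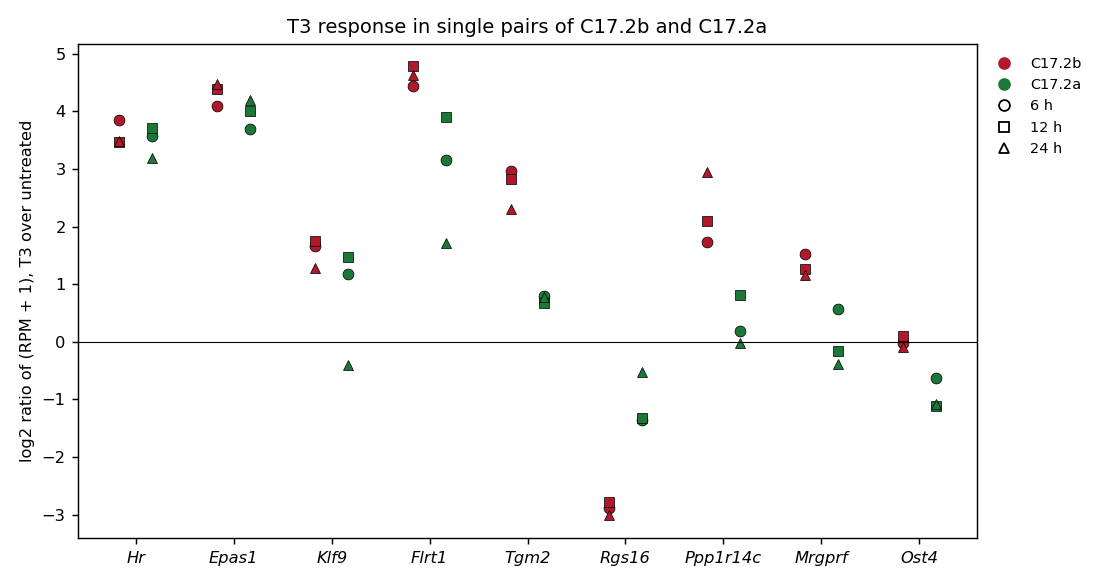
Each point is the log2 ratio of (RPM + 1), T3 over untreated, of a gene in 1 pair, with C17.2b in red to the left of C17.2a in green and the time given by the shape. Hr and Epas1 have like ratios in both lines, while Tgm2 (2.31 to 2.97 in C17.2b and 0.67 to 0.79 in C17.2a) and Rgs16 stand apart.

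Most genes called in C17.2b had the same direction in C17.2a. Of the 730 genes called higher in C17.2b, 411 (56.3%) were also higher in all 3 C17.2a pairs, against 21.3% of all tested genes with a positive fold change in C17.2b. Of the 356 called lower, 230 (64.6%) were lower in all 3, against 29.1% of those with a negative one. The median log2 ratio of the genes called higher was 0.75, 0.80 and 0.85 in C17.2b and 0.48, 0.61 and 0.28 in C17.2a at 6, 12 and 24 h. These genes were chosen on C17.2b, so the medians are a description and no comparison of the lines. For the hypoxia list the medians were 0.61, 0.95 and 1.25 in C17.2b and 0.44, 0.76 and 0.72 in C17.2a, and for glycolysis 0.47, 0.86 and 1.07 in C17.2b and 0.26, 0.49 and 0.50 in C17.2a. The difference between lines was not tested for lists.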

How the data were processed

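Expression was measured in 12 digital gene expression libraries, of which the 6 of C17.2b entered the main fit. The authors deposited 1 table with 12774 gene symbols in RPM, with the unit inferred from the table, since all columns have the same sum within rounding. The genome build is mm9 per the submitters' processing notes, and the alignment tool, the way tags were assigned to genes, and whether strand was used, are not given in the sources used here. Depth was read from the step of the low values, which lie at whole multiples in 90.0% to 93.7% of cases in C17.2b at a tolerance of 0.0055 RPM. The table therefore does not give back whole tags, and no count model was fitted. N/A was read as 0. Of the symbols, 11837 were current, 836 matched through a synonym and 101 matched none in a RefSeq gene table.

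Values were tested as log2(RPM + 1) in limma 3.58.1 under R 4.3.3, with terms for time and T3 and an intensity trend in eBayes. P-values were adjusted by the Benjamini-Hochberg method, at a threshold of 0.05, over the 10169 genes that reached 1 RPM in 3 or more libraries. Fold changes of genes with low levels are understated on this scale, and a fold against a level under the 3-tag floor is no bound. The code was tested on simulated data. The pairs share a time by design, and no label gives a replicate number. P-values and SEs rest on the spread between 3 pairs of libraries, moderated by limma over all genes (2 residual and 6.88 prior degrees of freedom). They are therefore not those of a gene's own 3 pairs alone. Real differences of the response between times count as error, and nothing in the labels says that libraries came from separate cultures. The difference between lines was fitted over 12 libraries with a block per pair. Alternatives changed the pseudocount, the filter, the scaling, the block, the prior, the libraries of the fit and the pairs included.

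The members and gene lists were chosen with earlier results of these data known. The genes named were the 15 largest changes each way with a mean of at least 2 RPM, the 8 highest levels among called changes of at least 2-fold, up to 4 members with the smallest p per list, the 6 largest late minus early ratios each way, the 5 smallest p for time and for line, and Thra, Thrb, Hr and Klf9. A few of them are not reported here. Promoters came from RefSeq, GRCm38.p6.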

Additional observations from a re-analysis of the deposited data

Results flagged for a closer look

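The slope of the log2 ratio per doubling of hours in C17.2b had an adjusted p under 0.05 in limma for 27 of the 198 genes named by rule. Over all 10169 genes tested, 221 (2.17%) passed. Some of the 27 were named for a large late minus early ratio or a small p for time, so their passing follows in part from the choice. Over all genes, 4 passed without a trend in limma's prior and 0 without a filter on low values. Positive slopes among the genes with large changes were 1.40 for Cox7a1, 0.92 for Cxcr7, 0.87 for Aldoa, 0.48 for Bnip3 and 0.55 for Arid5a, where that of Arid5a stands for a fall that was smaller at 24 h. Those of the hypoxia marker Car9, the cell cycle inhibitor Cdkn1a, the arrestin relative Arrdc3, Lbp, Atg9a and Gdap2 were 1.39, 0.68, 0.56, 1.04, 1.08 and 0.97. Negative slopes were -1.37 for Cyp26b1, -0.90 for Vdr and -0.44 for Dgat2, 3 genes whose rise was smaller at 24 h than at 6 h. They were -0.93 for Nav2, -0.91 for Ly6a, -0.78 for Pmp2, -0.77 for Cdsn, -0.66 for Moxd1 and -0.65 for Serpine2, whose falls were larger at 24 h. Of genes not called for the mean effect, Cav1 had 1.80, Gng11 1.46, Ier3 1.40, Appl2 1.19, the smooth muscle actin gene Acta2 0.63, Klf6 0.55 and Mrps21 -1.40.

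In 3 of the 198 genes named by rule every pair of C17.2b moved one way and every pair of C17.2a the other, as in 274 (2.69%) of the 10169 genes tested. The log2 fold change in C17.2b was 0.52 for Ccnd3, 0.30 for the stress transcription factor gene Ddit3 and 0.32 for the ribosomal protein gene Rplp0, of which only that of Ccnd3 was called. The test of the difference between lines, over all 12 libraries, gave an adjusted p of 0.722 in limma for each of the 3.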

How the results depend on the processing

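No gene called for T3 turned to a call in the other direction under any alternative run. Without a filter on low values 636 genes were called, 442 higher and 194 lower, and with all 12 libraries sharing 1 spread 329 were, 238 higher and 91 lower. The time block pairs libraries of the same time, since no label gives replicate numbers. Without the block 22 genes were called, 19 higher and 3 lower. Leaving out 1 pair in turn gave 243 to 1645 calls, with 188 to 1020 higher and 55 to 625 lower, and these fits took genes that reached 1 RPM in 2 or more libraries. Pseudocounts of 0.5 and 5, a filter at 5 RPM, median-ratio scaling and a prior without a trend kept the number of calls between 876 and 1143. The only change of sign among the named genes was Thrb, whose log2 fold change was -0.0052 to 0.42 over the fits without 1 pair, the lowest without the 12 h pair. Without the 12 h pair 73 named results lost their call, without the 6 h pair 26 and without the 24 h pair 2. The cause of these changes was not tested.

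For the change with time, 404 genes were called with hours as the scale, 441 with a pseudocount of 5, 362 with a filter at 5 RPM and 0 without a filter. A prior without a trend, chosen after seeing the data, gave 4. For the difference between lines, leaving out 1 pair in turn gave 0 to 2 genes. Levels under 0.157 to 0.421 RPM, by library, stand on fewer than 3 tags, and changes there are not detectable at this depth.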
